A study of Mus musculus with 6 samples.

Results

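Cleavage, polyadenylation and termination factors form the machinery that cuts a nascent transcript, adds its poly(A) tail and releases RNA polymerase II. The genes described here are the 10 rows, among 55401 gene rows of the count table, whose symbol is Pcf11, Cstf1, Cstf2, Cstf2t, Cstf3, Fip1l1, Wdr33, Rbbp6, Scaf4 or Scaf8. Each symbol had 1 row, and all 10 passed the filter on low counts that left 17573 genes. The list was drawn up with fold changes of these same libraries already known, so the p-values given for its members describe their rows in a fit of all genes and are no independent support.

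The libraries hold RNA labelled with 4-thiouridine (4sU), a uridine analogue that cells build into RNA while it is present, and were made from 129/Ola mouse embryonic stem cells. In the 3 depleted libraries, cells whose ZFP207 carries an auxin-inducible degron (AID), a tag that sends the protein to the proteasome, had been given the auxin IAA for 5 h, and the genotype label names ZFP207 degradation. The 3 control libraries are labelled AID 0h, and their genotype label reads WT although their titles name the same degron line. Effects of IAA itself and of losing ZFP207 cannot be told apart, since cells without the degron were not analysed here, and neither the 4sU pulse length nor the number of clones is given in the sources used here. ZFP207 is a zinc finger protein, and the series set out to find its role in the function of U1 snRNP, which pairs with 5′ splice sites at the start of splicing.

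Cleavage at a poly(A) site starts when the cleavage and polyadenylation specificity factor (CPSF) reads the AAUAAA signal and the cleavage stimulation factor (CstF) reads the GU-rich stretch downstream. U1 snRNP is known to hold back the use of such signals inside introns, which would otherwise end transcripts early. Pcf11 and Cstf3 are themselves genes with a known intronic poly(A) site, whose use gives a short transcript and lowers the full-length one. The counts here are per gene and do not separate such forms.

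Library totals ran from 14336811 to 25916628 counts, and the members had 600 to 7566 counts in a library. The stem cell markers Pou5f1, Sox2, Nanog, Esrrb and Zfp42 were at 140.6 CPM or more in every library (CPM, counts set relative to the library total after TMM scaling, which trims extreme genes). Of 6 markers of other cell types, Sox17, T, Col1a2 and Ptprc did not pass the filter on low counts, and Gata6 and Sox1 reached at most 14.6 CPM. The 6 summed to 43 to 245 counts in depleted and 34 to 222 counts in control libraries. Zfp207 RNA was at 695, 1467 and 596 CPM in depleted replicates 1 to 3 and at 545, 1116 and 548 CPM in control replicates 1 to 3, which does not check the loss of the protein. In Zfp207, as in Cstf3 and Cstf1 below, the libraries of replicate 2 stood apart from the others in both groups. Depleted and control libraries of the same number deviated together from their group means across genes. The replicate numbers were therefore taken to pair the libraries, and a fit with the replicate number as a block (the paired fit) is given beside the fit without it (the unpaired fit). Zfp207 RNA was higher in the depleted library of all 3 pairs, as were 24.2% of all genes tested. Its paired log2 fold change was 0.29 (edgeR adjusted p = 0.0196), and the unpaired fit did not call it (edgeR adjusted p = 0.823).

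Within the list, Pcf11 and Cstf3 were lower and Scaf4 was higher after 5 h of IAA, and the remaining 7 genes differed by less than 1.2-fold. The unpaired edgeR fit called 0 of the 10 members at an adjusted p under 0.05, where it called 0.780% of all genes lower and 0.0114% higher, and 3 members had an unadjusted p under 0.05, against 10.9% of all genes. The paired edgeR fit called 2 members lower, against 7.90% of all genes, and 1 higher, against 4.96%. DESeq2 without the block called 1 member, Pcf11, lower, against 3.29% of all genes, and 0 higher, against 0.353%. The median log2 fold change (depleted over control) of the members was -0.05, against 0.02 for all genes tested. Because the members were chosen with this contrast known, nothing is read from these shares.

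**Figure D1:**
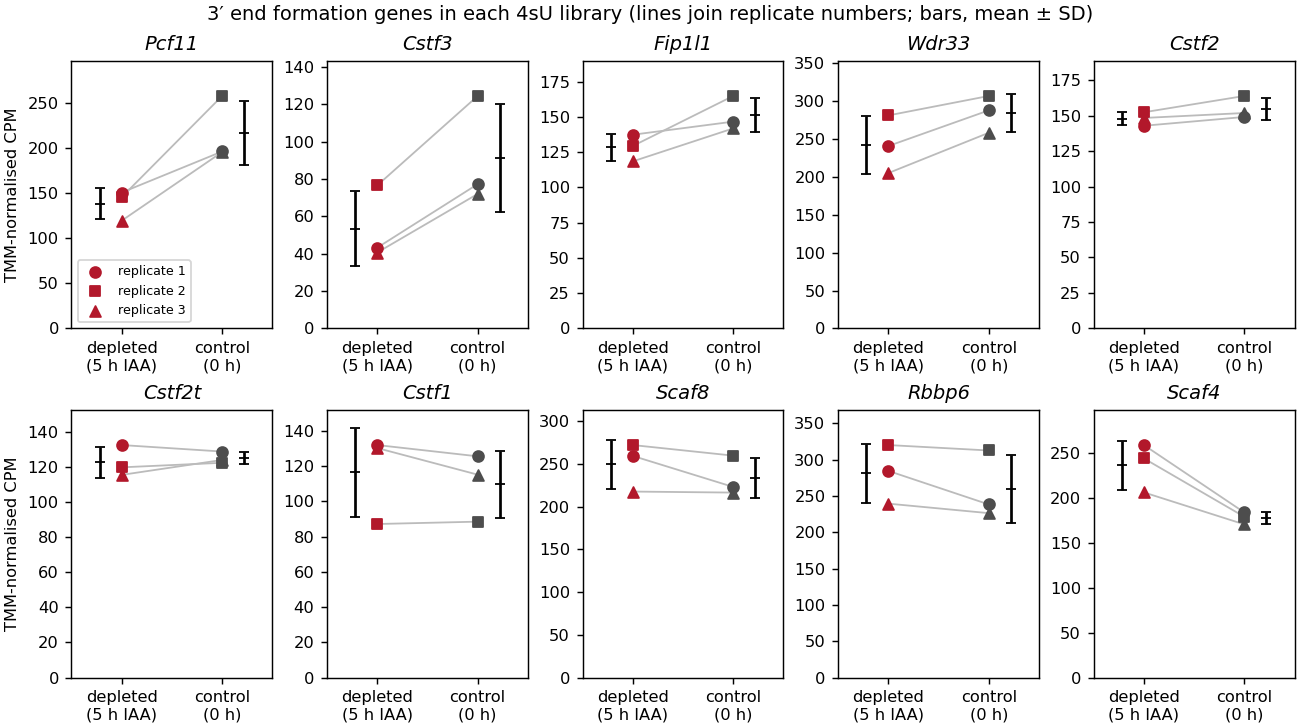
TMM-normalised CPM of the 10 genes in each library, with the 3 depleted libraries (red) left of the 3 control libraries (grey), lines joining the same replicate number and black bars giving mean ± SD. All 3 depleted points of Pcf11 lie below all 3 control points, those of Scaf4 lie above, and Cstf3 is lower at the depleted end of every line although replicate 2 is its highest library in both groups.

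Pcf11 encodes the subunit of cleavage factor II that binds the C-terminal domain (CTD) of RNA polymerase II and helps to dismantle the elongating complex. It was at 151, 146 and 119.7 CPM in depleted replicates 1 to 3, against 197, 258 and 196 CPM in control replicates 1 to 3. The highest depleted library thus stayed below the lowest control library, as it did for 11.8% of all genes tested. Pcf11 averaged 139 ± 16.8 CPM in depleted and 217 ± 35.8 CPM in control libraries (SD, n = 3 each), 1.56-fold lower after IAA. Its log2 fold change was -0.64 in both fits, with SE 0.17 and an edgeR adjusted p of 0.148 in the unpaired fit, and SE 0.09 and 8.01e-04 in the paired fit. DESeq2 without the block gave an adjusted p of 0.0313. The gene spans 26.6 kb (mm10, chromosome 7, 92643458 to 92670080) and overlaps the noncoding gene Gm26944.

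Cstf3 encodes the 77 kDa scaffold subunit of CstF, around which the other subunits assemble. Its level was 43.2, 76.5 and 40.6 CPM in depleted replicates 1 to 3, against 77.2, 124 and 72.0 CPM in control replicates 1 to 3. The groups overlap, because depleted replicate 2 lies above control replicate 3, but every depleted library was lower than the control library of its number. The log2 ratios within pairs were -0.84, -0.70 and -0.82. The paired fit gave a log2 fold change of -0.79 (SE 0.09, edgeR adjusted p = 2.25e-04), 1.73-fold lower, and the unpaired fit gave -0.77 (SE 0.29, edgeR adjusted p = 0.372). Without control replicate 2 the unpaired value was -0.48, and without depleted replicate 2 it was -1.12. Neither was called, but these fits called 0 genes of all lower. Cstf3 spans 74.9 kb (chromosome 2, 104590484 to 104665425), and no other gene of the RefSeq table overlaps it.

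The other CstF genes were called in neither fit. Cstf1 encodes the WD40-repeat subunit and was at 132, 87.1 and 130.2 CPM in depleted replicates 1 to 3, against 126, 88.4 and 115 CPM in control replicates 1 to 3. Its pairs differed in sign, and its log2 fold change was 0.08 with a 95% interval of -0.11 to 0.26 in the paired fit (edgeR adjusted p = 0.620). Cstf1 overlaps Aurka, and Cstf3 made up a smaller part of the counts of Cstf3 and Cstf1 together in each pair. That part was 24.7, 46.8 and 23.8% in depleted replicates 1 to 3, against 38.1, 58.5 and 38.5% in control replicates 1 to 3.

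Cstf2 and Cstf2t encode the RNA-binding subunit of CstF. Cstf2 is X-linked, and Cstf2t is its autosomal paralogue, needed in male germ cells. Cstf2 was at 143, 152 and 148 CPM in depleted replicates 1 to 3, against 149, 164 and 152 CPM in control replicates 1 to 3, and was lower in all 3 pairs by small amounts (paired log2 fold change -0.07, 95% interval -0.23 to 0.10, edgeR adjusted p = 0.639). Cstf2t was at 132, 119.7 and 115 CPM in depleted replicates 1 to 3 and at 129, 122 and 124 CPM in control replicates 1 to 3 (paired log2 fold change -0.03, 95% interval -0.21 to 0.15, edgeR adjusted p = 0.859). The groups overlap for both genes. Cstf2t took 48.1, 44.0 and 43.8% of the counts of both paralogues in depleted libraries and 46.4, 42.8 and 44.9% in control libraries. Cstf2 overlaps Nox1 and Mir3112, Cstf2t lies in the interval of Prkg1, and reads that match both paralogues may have been divided between them.

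Fip1l1 and Wdr33 encode CPSF subunits of the polyadenylation module. WDR33 contacts the AAUAAA signal, and FIP1 binds U-rich RNA and recruits poly(A) polymerase. Fip1l1 was at 137, 129 and 119 CPM in depleted replicates 1 to 3, against 147, 165 and 142 CPM in control replicates 1 to 3. Its depleted libraries all lay below its control libraries, as for 11.8% of all genes tested. Its log2 fold change of -0.23 was called in neither the unpaired fit (edgeR adjusted p = 0.600) nor the paired fit (0.0849, 95% interval -0.41 to -0.05). Wdr33 was at 241, 281 and 205 CPM in depleted replicates 1 to 3, against 288, 307 and 258 CPM in control replicates 1 to 3. It was lower in each pair while the groups overlapped, with a paired log2 fold change of -0.24 (edgeR adjusted p = 0.0522). The paired edgeR adjusted p was 0.188 without pair 1, 0.0432 without pair 2 and 0.191 without pair 3. In the unpaired edgeR fit it was 0.662. Fip1l1 overlaps Lnx1 and Wdr33 overlaps the pseudogene Gm6665.

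Rbbp6, a RING finger protein that activates the cleavage nuclease, was at 285, 320.2 and 239.5 CPM in depleted replicates 1 to 3, against 238, 313 and 226 CPM in control replicates 1 to 3. The depleted library was higher in all 3 pairs and the groups overlapped. The paired log2 fold change was 0.12 (95% interval -0.04 to 0.29, edgeR adjusted p = 0.314). The noncoding gene 4930413G21Rik overlaps Rbbp6.

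**Figure D2:**
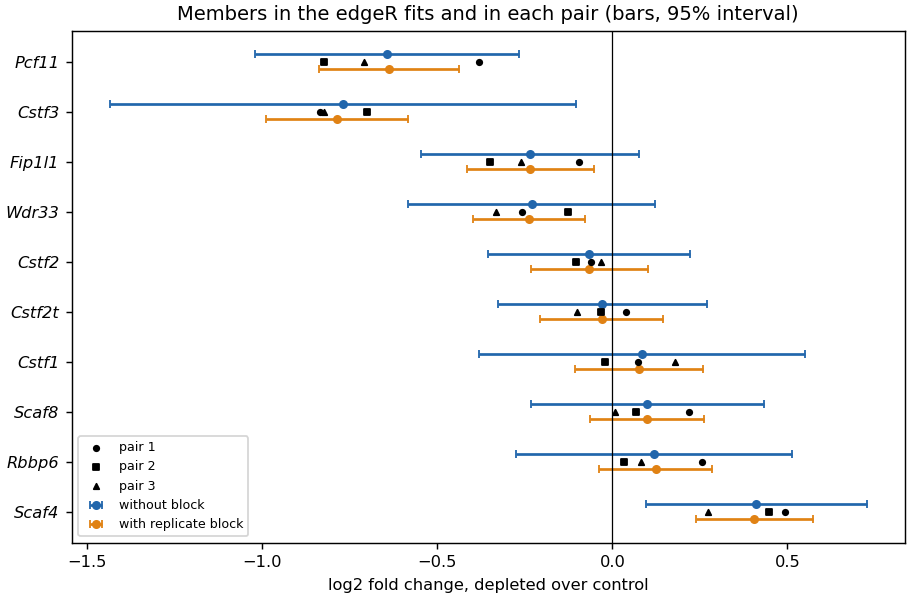
Log2 fold change (depleted over control) of each gene in the unpaired edgeR fit (blue) and in the paired fit (orange), with 95% intervals, and the log2 ratio of each replicate pair in black. The paired intervals are narrower, and those of Pcf11, Cstf3, Fip1l1, Wdr33 and Scaf4 exclude 0 before adjustment for the number of genes.

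Scaf4 and Scaf8 encode paralogous proteins that, like PCF11, bind the CTD through a CTD-interacting domain. In human cells the pair is known to prevent the use of early poly(A) sites. Scaf4 was at 259, 244 and 207 CPM in depleted replicates 1 to 3, against 184, 179 and 171 CPM in control replicates 1 to 3. All depleted libraries lay above all control libraries, as for 6.94% of all genes. Scaf4 averaged 237 ± 27.2 CPM in depleted and 178 ± 6.76 CPM in control libraries (SD, n = 3 each). The log2 fold change was 0.41 in both fits, a 1.33-fold higher level, with an edgeR adjusted p of 0.294 (SE 0.14) unpaired and 0.00484 (SE 0.08) paired.

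Scaf8 was at 259, 272 and 218 CPM in depleted replicates 1 to 3, against 223, 260 and 216 CPM in control replicates 1 to 3. It was higher in each pair, but the groups overlapped and the paired fit did not call it (log2 fold change 0.10, 95% interval -0.06 to 0.26, edgeR adjusted p = 0.442). The share of Scaf4 in the counts of both paralogues does not depend on library scaling. It was 50.01, 47.3 and 48.7% in depleted replicates 1 to 3, against 45.2, 40.9 and 44.1% in control replicates 1 to 3, with no overlap. How often gene pairs of the whole series show such a gap was not computed. The share of Pcf11 in the counts of Pcf11 and Scaf8 was 36.8, 34.9 and 35.5% in depleted libraries, against 46.9, 49.9 and 47.5% in control libraries. With Scaf8 little changed, both shares restate the higher level of Scaf4 and the lower level of Pcf11 and are no second result. The share of Pcf11 beside Scaf8, like that of Cstf3 beside Cstf1, was not among those planned. No test is given for these shares, since they use the contrast that the choice of members used. Scaf8 overlaps the noncoding gene A230045G11Rik and a pair of pseudogenes, and no gene of the table overlaps Scaf4.

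**Figure D3:**
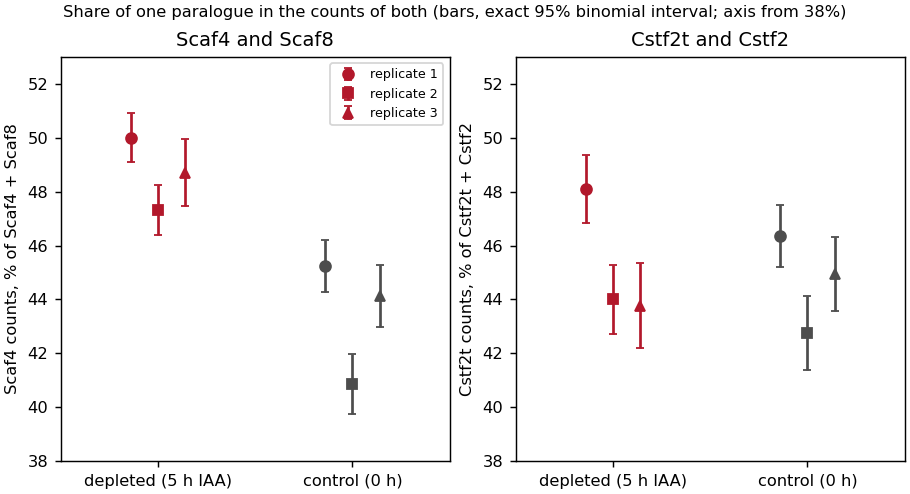
Counts of Scaf4 as a percentage of Scaf4 and Scaf8 (left) and of Cstf2t as a percentage of Cstf2t and Cstf2 (right) in each library, depleted (red) left of control (grey), with exact 95% binomial intervals that cover counting error only. The vertical axes start at 38%. Scaf4 takes 47.3 to 50.01% in depleted and 40.9 to 45.2% in control libraries, while the Cstf2t shares of the groups overlap. With Scaf8 little changed, the Scaf4 share restates the higher level of Scaf4.

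Across the list, 5 members (Pcf11, Cstf3, Fip1l1, Wdr33 and Cstf2) were lower after IAA in each of the 3 pairs, against 24.1% of all genes tested. Another 3 (Scaf4, Scaf8 and Rbbp6) were higher in all 3 pairs, against 24.2% of all genes. The members were chosen with this contrast known, so nothing is read from these counts either. Among all tested genes ordered by unpaired log2 fold change, Cstf3 stood at percentile 11.4, Pcf11 at 14.2 and Scaf4 at 87.0. The other members lay between percentile 29.5 for Fip1l1 and 60.6 for Rbbp6.

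Long genes lay lower than short ones in these libraries, and the members span 3.75 kb (Cstf2t) to 104.9 kb (Wdr33). Tested genes whose symbol is not in the RefSeq table have no length and are left out of the length classes. The median unpaired log2 fold change was 0.04 for 4650 genes of 10 to 30 kb, the class of Pcf11, Cstf1 and Cstf2. It was -0.07 for 3865 genes of 30 to 100 kb, the class of Cstf3, Fip1l1, Rbbp6, Scaf4 and Scaf8. Pcf11 at -0.64 and Cstf3 at -0.77 thus lay below their class medians, and Scaf4 at 0.41 lay above. Wdr33 at -0.23 was nearer to the median of its class of 100 kb or more, -0.12. In the paired fit 9.31% of the genes of 10 to 30 kb and 13.9% of those of 30 to 100 kb were called lower, and 7.29 and 4.48% were called higher. The part of gene length in the members' values was not tested.

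**Figure D4:**
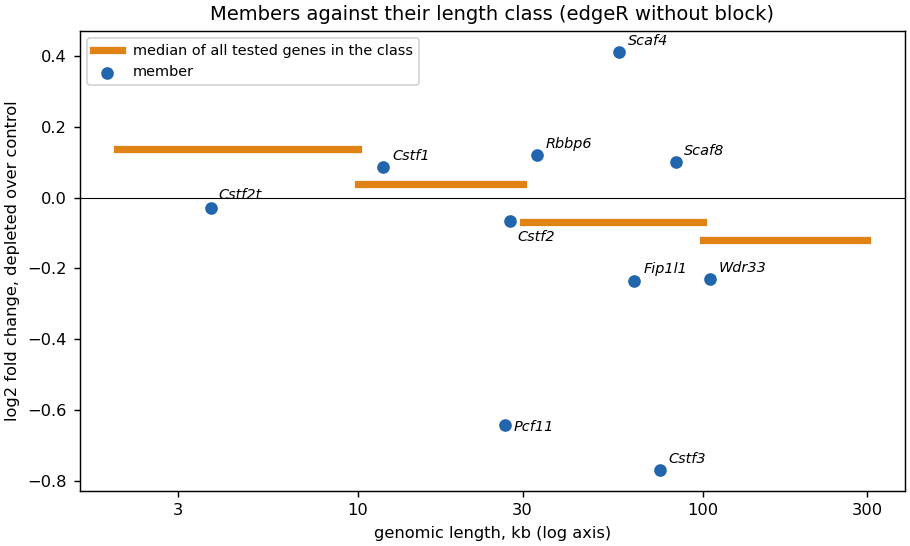
Unpaired log2 fold change (depleted over control) of the 10 genes against genomic length in kb on a log axis, with orange bars for the median of all tested genes with a RefSeq length in each length class (the outer classes are open-ended). Cstf3 and Pcf11 lie at -0.77 and -0.64, below bars at -0.07 and 0.04, and Scaf4 lies at 0.41.

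The promoters of the 3 members called in the paired fit are shown because these genes moved in both directions. Each line gives, on the gene's strand, the 150 bases before 1 of the transcript starts that RefSeq annotates (GRCm38.p6, the assembly mm10 names). That start is the outermost one for Cstf3, and it lies 168 bases inside the annotated span of Pcf11 and 1637 bases inside that of Scaf4, so both printed windows lie within those genes. Capitals mark GGGCGG (GC box), CCGGAA (the core bound by ETS factors) and CCAAT, each on either strand, and no matches overlap.
Pcf11, chr7:92669913-92670062, minus strand: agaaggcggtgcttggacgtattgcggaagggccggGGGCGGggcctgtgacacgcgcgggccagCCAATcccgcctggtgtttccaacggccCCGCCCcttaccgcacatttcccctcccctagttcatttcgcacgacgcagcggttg
Cstf3, chr2:104590334-104590483, plus strand: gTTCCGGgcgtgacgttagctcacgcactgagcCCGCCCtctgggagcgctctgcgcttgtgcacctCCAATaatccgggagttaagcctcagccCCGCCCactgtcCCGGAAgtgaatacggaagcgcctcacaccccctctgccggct
Scaf4, chr16:90284504-90284653, minus strand: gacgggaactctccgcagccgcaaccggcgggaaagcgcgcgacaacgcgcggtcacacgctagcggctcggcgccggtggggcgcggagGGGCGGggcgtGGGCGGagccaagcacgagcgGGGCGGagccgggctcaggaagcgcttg

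Pcf11 and Cstf3 each hold 2 GC boxes and a CCAAT box in the printed stretch, Cstf3 also holds 2 ETS cores, and Scaf4 holds 3 GC boxes. Over the 250 bases before 1 annotated start per gene, a GC box was found in 6 of 9 members, against 32.7% of 32817 promoters. CCAAT was found in 4 of 9, against 33.8%, and CCGGAA in 3 of 9, against 12.0%. TATAAA, the TATA box, was found in 0 of 9, against 12.4%. All motifs were searched on both strands. The 9 windows held 17 to 40 CpG dinucleotides, against a median of 6 over all promoters. Those 32817 promoters were not limited by expression, by gene type or to 1 start per gene. The members are protein-coding genes that passed the filter on low counts, so the sets are unlike and the contrasts may not be particular to the members. The start used lies inside the annotated span of Cstf1, Fip1l1, Pcf11, Rbbp6 and Scaf4, by 53 to 1637 bases, and another start could give other counts. These counts describe letters in a window and not binding, and Wdr33 was not included.

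Other genes of the same pathway moved in both directions as well. All of the 28 listed from general knowledge, with earlier results of these data known, passed the filter on low counts. The unpaired edgeR fit called 0 of them, with 6 at an unadjusted p under 0.05, against 10.9% of all genes. DESeq2 without the block called 1 lower, against 3.29% of all genes. The paired fit called 3 lower, against 7.90% of all genes, and 7 higher, against 4.96%. Their median unpaired log2 fold change was 0.06. Because the list was made with earlier results known, nothing is read from these shares.

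The 3 that fell in the paired fit act at different steps. Zc3h4, part of a complex that ends unproductive transcription early, had the lowest value of the list. It was at 119.8, 75.2 and 122 CPM in depleted replicates 1 to 3, against 194, 150.5 and 203 CPM in control replicates 1 to 3, a log2 fold change of -0.79 unpaired (edgeR adjusted p = 0.168) and -0.81 paired (edgeR adjusted p = 1.33e-04), and DESeq2 gave an adjusted p of 0.0294. Its depleted libraries all lay below its control libraries, as for 11.8% of all genes tested. Ppp1r10, the PNUTS subunit that targets protein phosphatase 1 to elongation complexes, fell 1.5-fold in the paired fit, with 120 ± 29.98 CPM in depleted and 182 ± 55.4 CPM in control libraries (SD, n = 3 each). Papolg, a nuclear poly(A) polymerase, fell 1.37-fold in the paired fit (edgeR adjusted p = 0.00950, and 0.0806 without pair 3), while its relative Papola had a paired log2 fold change of 0.00. Papolg overlaps Gm12061 and Ppp1r10 overlaps Mir1894.

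The 7 genes that rose in the paired fit did so by 1.19 to 1.35-fold. Cdk13 and Cdk12, kinases that phosphorylate the CTD during elongation, rose 1.35-fold and 1.28-fold. Cdk13 had the highest unpaired log2 fold change of the list, 0.44 (edgeR adjusted p = 0.322), with 239 ± 30.9 CPM in depleted and 177 ± 19.8 CPM in control libraries (SD, n = 3 each). Sympk, the symplekin scaffold of the cleavage complex, rose 1.31-fold, and Pabpn1, the nuclear poly(A) binding protein, rose 1.29-fold. The cleavage factor I subunits Cpsf6 and Cpsf7 rose 1.23-fold and 1.19-fold, and their partner Nudt21 had a paired log2 fold change of 0.06 that was not called. Ppp1ca, a catalytic subunit of protein phosphatase 1, rose 1.26-fold. The adjusted p of these 7 in the paired edgeR fit ran from 0.00232 for Cdk13 to 0.0478 for Cpsf7. With the block kept, 5 of them were called without pair 1, 3 without pair 2 (Sympk, Cdk12 and Cdk13) and 2 without pair 3 (Cdk12 and Cdk13). Cpsf7 and Ppp1ca were called in none of the 3. Over all genes, the same fits called 491 of 17467, 412 of 18022 and 250 of 18008 higher. Cpsf7 overlaps Tmem216, Ppp1ca overlaps Rad9a, Cdk12 overlaps Gm38963 and Mir5119, and Cdk13 overlaps Mir466i.

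The remaining 18 genes were called in neither fit. They include the AAUAAA reader subunit Cpsf4, with a paired log2 fold change of 0.06, and the 5′-3′ exonuclease Xrn2, which degrades the RNA left after cleavage, at 0.11. The cleavage nuclease Cpsf3 was at -0.30 (95% interval -0.55 to -0.04, edgeR adjusted p = 0.122). It was lower in all 3 pairs, as were 24.1% of all genes tested. Its depleted libraries all lay below its control libraries, as for 11.8%. Ssu72, a CTD phosphatase, was at 38.7, 36.6 and 38.3 CPM in depleted libraries, against 50.3, 47.5 and 48.4 CPM in control libraries. Its groups did not overlap, with depleted below control as for 11.8% of all genes tested, and its paired edgeR adjusted p was 0.0543.

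**Figure D5:**
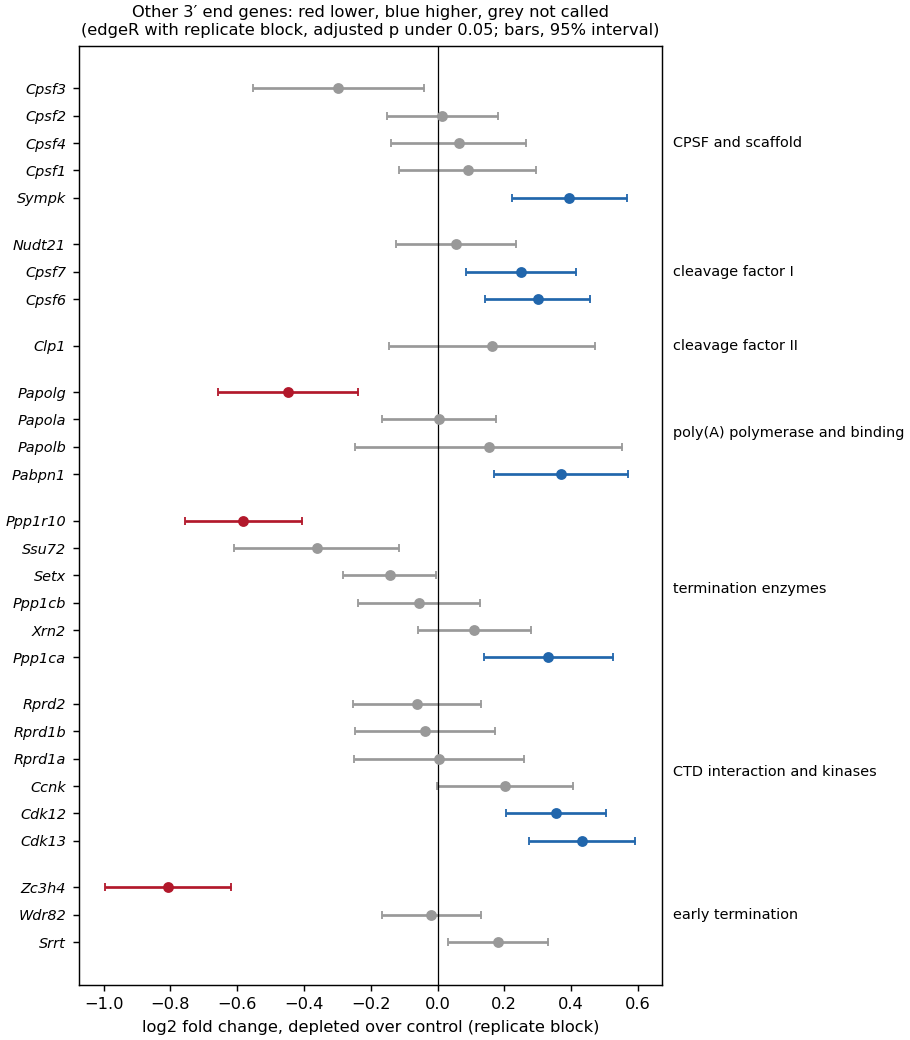
Paired log2 fold change (depleted over control) with 95% intervals of the 28 other genes of 3′ end formation, grouped by role, with genes called lower in red, genes called higher in blue and the rest in grey. Zc3h4, Ppp1r10 and Papolg lie between -0.81 and -0.45, and the 7 blue genes lie between 0.25 and 0.43.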

How the data were processed

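Labelled RNA of 6 libraries was compared, 3 depleted and 3 control. The authors deposited estimated counts per gene as whole numbers, 1 column per library, and each column was matched to a sample by its title. The submitters' processing notes name the build mm10 and the tools StringTie 2.2.1, HISAT2 2.2.1 and DESeq2 1.42.0 without saying what each did. Strand is not given in the sources used here, so reads of overlapping genes cannot be told apart. The sources used here do not say that replicates were separate cultures, and the p-values then cover only library-to-library spread, which may be technical.

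Counts were filtered with filterByExpr, scaled by TMM and tested with the quasi-likelihood test of edgeR 4.0.16 (R 4.3.3), depleted over control, with Benjamini-Hochberg adjustment over 17573 genes and calls under 0.05. The paired fit adds the replicate number as a block. The labels do not say what a number stands for, and the pairing rests on deviations from the group means, which correlated across genes at 0.268, 0.387 and 0.321 for the same number and at -0.265 to -0.025 for different numbers. Deviations within a group sum to 0, so positive values for the same number bring negative ones for different numbers. The negative values are thus no separate evidence for the pairing. Pair ratios use log2 CPM with a prior count of 2, and standard errors are those implied by the F statistic. On simulated counts with 50 genes per size, the unpaired fit recovered 17, 0, 2 and 25 genes at log2 fold changes of -2, -1, 1 and 2. The paired fit recovered 27, 12, 17 and 36. These counts were drawn from means and spreads fitted with the replicate number and without the groups. Replicate differences were thus built in, and the recovery is no support for the pairing. The members and lists were chosen with earlier results of these data known. All members are named, as are the other 3′ end genes called in either fit or at an extreme of the unpaired one, and genes of the last paragraph on them were named after their values were seen. Locations, overlaps and promoters come from RefSeq tables of GRCm38.p6. The planned comparison of levels between members per transcript length was not run, for want of transcript lengths here. Alternatives were RLE factors, library totals, no filter, DESeq2 1.42.0, the block, and leaving out libraries or pairs.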

Additional observations from a re-analysis of the deposited data

How the results depend on the processing

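The unpaired edgeR fit called 0 members and 0 other 3′ end genes with RLE factors, library totals alone, no filter or any 1 library left out. Over all genes, RLE factors gave 124 lower and 2 higher, library totals 172 and 2, and no filter 163 and 2. With 1 library left out, at most 1 gene of all tested was called in either direction, so 0 members there says nothing about them. DESeq2 called 1 member and 1 other gene lower. With the replicate block, 2 members were lower and 1 higher, and 3 other genes were lower and 7 higher. With the block and any 1 pair left out, Pcf11, Cstf3 and Scaf4 were called each time (members lower 2 to 3, higher 1). Wdr33 was added without pair 2, and other genes numbered 2 to 3 lower and 2 to 5 higher. Over all genes, leaving out pair 1 gave 927 lower and 491 higher of 17467. Without pair 2 these were 1016 and 412 of 18022, and without pair 3 they were 699 and 250 of 18008. The members were chosen with this contrast known, so repeated calls are no independent support. With 1 pair left out, the paired log2 fold change ran from -0.77 to -0.54 for Pcf11, -0.83 to -0.76 for Cstf3 and 0.36 to 0.46 for Scaf4. The members' median was -0.11 with library totals, where the median of all genes was -0.04, and -0.07 to -0.04 with 1 library left out. Of 140 recomputed member values, 14 passed the threshold where the unpaired edgeR fit did not, all with the replicate block except Pcf11 in DESeq2. A further 122 kept their direction and call. Values with 1 library left out could hardly gain a call, so that count is no measure of stability. The last 4 changed sign. Those were Cstf1, which ran from -0.049 to 0.26 with 1 library left out (below 0 when depleted replicate 1, depleted replicate 3 or control replicate 2 was omitted), and Cstf2t, which ran from -0.087 to 0.0076 (above 0 when depleted replicate 3 was omitted). A shift of the whole labelled RNA pool would be hidden by the scaling, and 3 libraries per group limit the precision.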
